A study of Bos grunniens with 18 samples.

Results

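The circadian clock genes *PER1*, *PER2*, *PER3*, *CRY1*, *CRY2*, *CLOCK*, *NR1D1*, *NR1D2*, *DBP* and *TEF* were followed in the whole blood of female yaks at 3 reproductive stages. They were found by their gene names in the deposited expression table. Of the 10 names, 9 had a row, each of them 1 row, among 20607 genes in all, and *PER3* was not analysed here. The blood came from yaks (*Bos grunniens*) aged 4 to 8 years in anestrus (Y-A), in estrus (Y-E) and in pregnancy (Y-P), with 6 libraries for each stage and 18 in all. Estrus had been induced with a progesterone pessary, a prostaglandin F2α analogue and gonadotropin-releasing hormone, after which the cows were inseminated. The study tracked the blood of 6 cows, and the hour of day at which blood was drawn is not given in the sources used here.

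Almost every nucleated cell of the body, white blood cells included, carries a clock made of a loop of transcription and repression that turns about once a day. CLOCK and its partner ARNTL (BMAL1) bind E-box elements and switch on the period genes (PER), the cryptochrome genes (CRY) and further targets, and the PER and CRY proteins then return to the nucleus and shut off CLOCK and ARNTL. A side loop is formed by the nuclear receptors NR1D1 and NR1D2 (REV-ERBα and REV-ERBβ), which repress *ARNTL*, and an output arm is formed by the PAR bZIP factors DBP, TEF and HLF, which activate genes through D-box elements.

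Of the 9 clock genes, 1 differed between the stages: *DBP* was 1.7-fold higher in Y-P than in Y-A, on a log2 scale by 0.77 ± 0.22 (SE, n = 6 libraries per stage), a call that held in 13 of 27 alternative fits. The other 8, which include the activator *CLOCK*, the period and cryptochrome genes, both REV-ERB genes and *TEF*, did not pass the test in any of the 3 comparisons. *PER1* came nearest among them, with a mean level in Y-P that was 1.53 times that in Y-E, and 1 Y-P library carried much of that difference. Between Y-E and Y-A none of the 9 passed, in a comparison in which 0.0207% of all tested genes did. The share of all tested genes that passed was 5.83% between Y-P and Y-A and 14.4% between Y-P and Y-E. The median of the coefficients of variation of the 9 genes over the 18 libraries was 18.3%, against 27.8% for all 14508 genes tested. The 2 sets were not matched for level and stage differences enter both, so these medians do not show that the clock genes are unusually steady.

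Each library held 30247267 to 48401076 counts, so that 3 counts, the number that a count of 0 still allows, came to 0.062 to 0.0992 CPM (counts scaled to an equal library total). Between 3.1% and 16.7% of the Y-A counts fell on hemoglobin genes, compared with 0.0272% to 0.376% in Y-P, and 0.0899% to 0.713% in Y-E apart from Y-E replicate 6, where it was 8.36%. That library stands apart from its stage, and the results nearest to the threshold are therefore given with and without it. The listed markers of blood cells were all detected. Neutrophil markers (5 of 7 names listed) summed to 3630 to 9220 CPM in Y-A, 4690 to 12400 CPM in Y-E and 2640 to 5940 CPM in Y-P, and 4 of the 5 were lower in Y-P than in Y-E. T cell markers (4 of 6 listed) summed to 619 to 783 CPM in Y-A, 593 to 785 CPM in Y-E and 693 to 1310 CPM in Y-P, with 2 of 4 higher in Y-P than in Y-A and 3 of 4 higher than in Y-E. Reticulocyte markers (4 of 6 listed) summed to 439 to 10500 CPM in Y-A, 92.1 to 4470 CPM in Y-E and 39 to 122 CPM in Y-P, with all 4 lower in Y-P than in Y-A. Among the monocyte, B cell and eosinophil markers 0 passed in any comparison. In Y-P, 1 NK cell marker was higher than in Y-E. Of the platelet markers, 1 was lower in Y-P than in Y-A and 1 lower than in Y-E. Of all tested genes, 2.22% were called higher and 3.61% lower between Y-P and Y-A. Between Y-P and Y-E, 14.4% of all tested genes were called, and 8.68% were called lower. The single NK cell and platelet calls are therefore given as a description only. In whole blood, fewer cells of a type and less RNA per cell cannot be told apart, and the part of these cell markers in the results on the clock genes was not tested.

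The levels of different genes were compared per length, as FPKM, in which the fragments of a gene are divided by its exon length and by the mapped reads of the library. *NR1D2* had the highest FPKM, with a mean of 13.5 ± 3.18 (SD, n = 18), and stood above the next gene in 18 of 18 libraries. The output factors *DBP* and *TEF* followed with means of 7.55 ± 2.92 and 7.47 ± 1.56 FPKM, and then *CRY2* with 6.92 ± 1.09 and *CRY1* with 6.14 ± 1.35 FPKM. These 4 genes were not ordered in a fixed way: *DBP* was above *TEF* in 8 of 18 libraries, *TEF* above *CRY2* in 10, and *CRY2* above *CRY1* in 12. *PER1* at 4.42 ± 1.83 FPKM and *CLOCK* at 3.98 ± 0.907 FPKM also changed places, with *PER1* the higher in 8 of 18 libraries. The lowest were *NR1D1* with 2.3 ± 0.456 FPKM, under *CLOCK* in 17 of 18 libraries, and *PER2* with 0.426 ± 0.202 FPKM, under *NR1D1* in 18 of 18. Of all 20607 genes, 73.6% had a lower mean FPKM than *NR1D2* and 36.6% a lower one than *PER2*. The 20607 include genes with few or no counts, as 14508 of them passed the filter on low counts. The place of the clock genes among those 14508 alone was not computed.

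**Figure D1:**
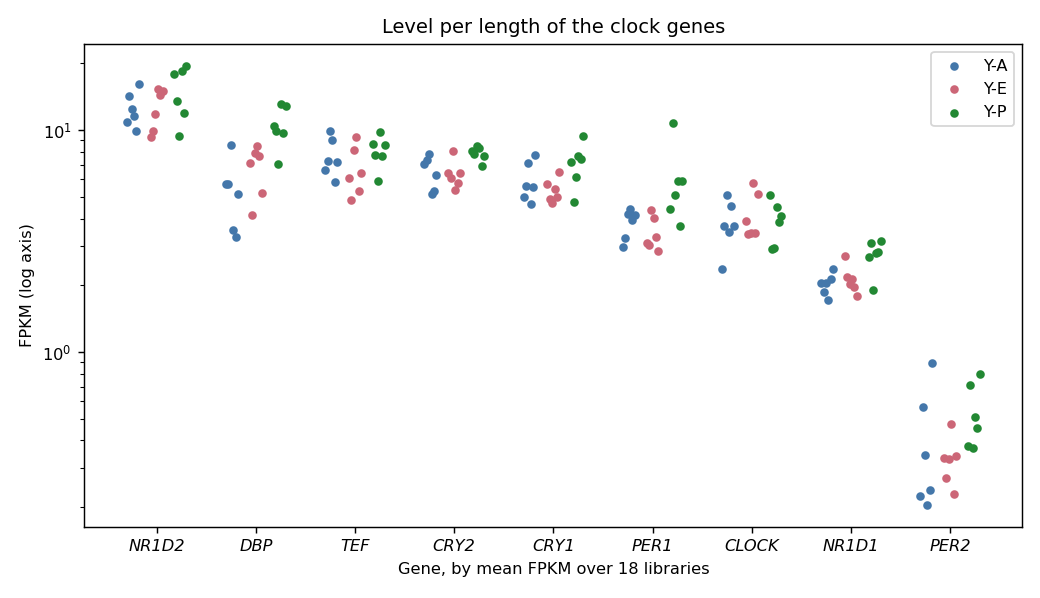
FPKM (log axis) of the 9 clock genes, ordered by their mean over 18 libraries, with a point for each library coloured by stage. NR1D2 has the highest mean, 13.5 FPKM, but its lowest point, 9.35 FPKM, lies under the highest of DBP, 13.2 FPKM. The 4 genes from DBP to CRY1 overlap each other and PER1, and PER2 lies lowest with a mean of 0.426 FPKM.

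For comparisons between stages, counts were scaled to CPM with TMM factors and tested gene by gene with edgeR, and a gene was called where the Benjamini-Hochberg adjusted p over all 14508 tested genes was under 0.05. All 9 clock genes passed the filter on low counts. The smallest counts were those of *PER2*, with 33 to 160 per library, and the largest those of *PER1* and *NR1D2*, which reached 2167 and 2207. The 3 comparisons share their libraries, so a stage that stands out enters 2 of them.

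The output arm held the one difference. *DBP* (ENSBGRG00000020542, chromosome 20, 59946613 to 59952785, plus strand) encodes a PAR bZIP activator that is a direct target of CLOCK and ARNTL and swings widely over the day in most tissues. Its levels in the 6 Y-A libraries, by replicate number, were 9.72, 8.27, 12.4, 5.31, 5.27 and 8.14 CPM. In Y-E they were 10.7, 6.51, 12.9, 12, 11.9 and 7.65 CPM. In Y-P they were 13.0, 14.4, 10.4, 16.4, 12.9 and 16.4 CPM, so that 5 of 6 Y-P libraries lay above every Y-A library, and Y-P replicate 3 lay below Y-A replicate 3.

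The log2 fold change of *DBP* between Y-P and Y-A was 0.77 (95% interval 0.31 to 1.22, adjusted p = 0.0431 by edgeR), which was under the log2 fold change of 1 that the study set as its second threshold. With limma on log2(FPKM + 0.1) it was 1.01 and called, past both thresholds, as were 2.36% of all tested genes in that fit. That fit used no TMM scaling, its median log2 fold change over all tested genes was 0.22, and 88.1% of its calls were higher in Y-P. Less that median, *DBP* had 0.79, under 1. By edgeR *DBP* was the 1 call among the 9 clock genes, in a comparison in which 5.83% of all tested genes were called and 2.22% were called higher. Without Y-E replicate 6 the *DBP* value was 0.77 with an adjusted p of 0.0421, and with the replicate number as a block it was 0.8 with an adjusted p of 0.0446. With the block and without Y-E replicate 6 the call was lost (0.8, adjusted p = 0.0506). The direction held in all 27 alternative fits, while the call held in 13 of them, with adjusted p from 0.00949 to 0.0922. Leaving out 1 library ended the call for Y-A replicates 1, 2, 4, 5 and 6, for Y-E replicates 1 and 5 and for Y-P replicates 2, 4, 5 and 6, with log2 fold changes that stayed between 0.67 and 0.92.

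Y-E lay between the other stages for *DBP*, with a mean of 10.3 ± 2.6 CPM (SD, n = 6) against 8.18 ± 2.72 CPM for the Y-A libraries and 13.9 ± 2.31 CPM for the Y-P libraries. The difference between Y-P and Y-E was 0.44 on the log2 scale (95% interval -0.013 to 0.89, adjusted p = 0.184), and that between Y-E and Y-A 0.33 (95% interval -0.12 to 0.78, adjusted p = 0.948). Both intervals include 0, and both reach past 0.7.

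*TEF* (ENSBGRG00000007661, chromosome 5, 120873908 to 120896638, plus strand) encodes a factor that binds the same D-box elements as DBP. Its lowest, median and highest levels were 13.1, 15.9 and 20.2 in Y-A, 10.7, 13.2 and 18.9 in Y-E and 12.3, 15.4 and 17.2 CPM in Y-P. The ranges overlapped in part, from 13.1 to 17.2 CPM over all 3 stages, and 3 of 6 Y-E libraries lay below every Y-A library. The log2 fold change of *TEF* was -0.2 between Y-E and Y-A (95% interval -0.52 to 0.12, adjusted p = 0.989) and 0.074 between Y-P and Y-E (adjusted p = 0.796). Between Y-P and Y-A it was -0.12 (95% interval -0.44 to 0.2, adjusted p = 0.683), and its sign turned to 0.038 with scaling by library size alone.

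**Figure D2:**
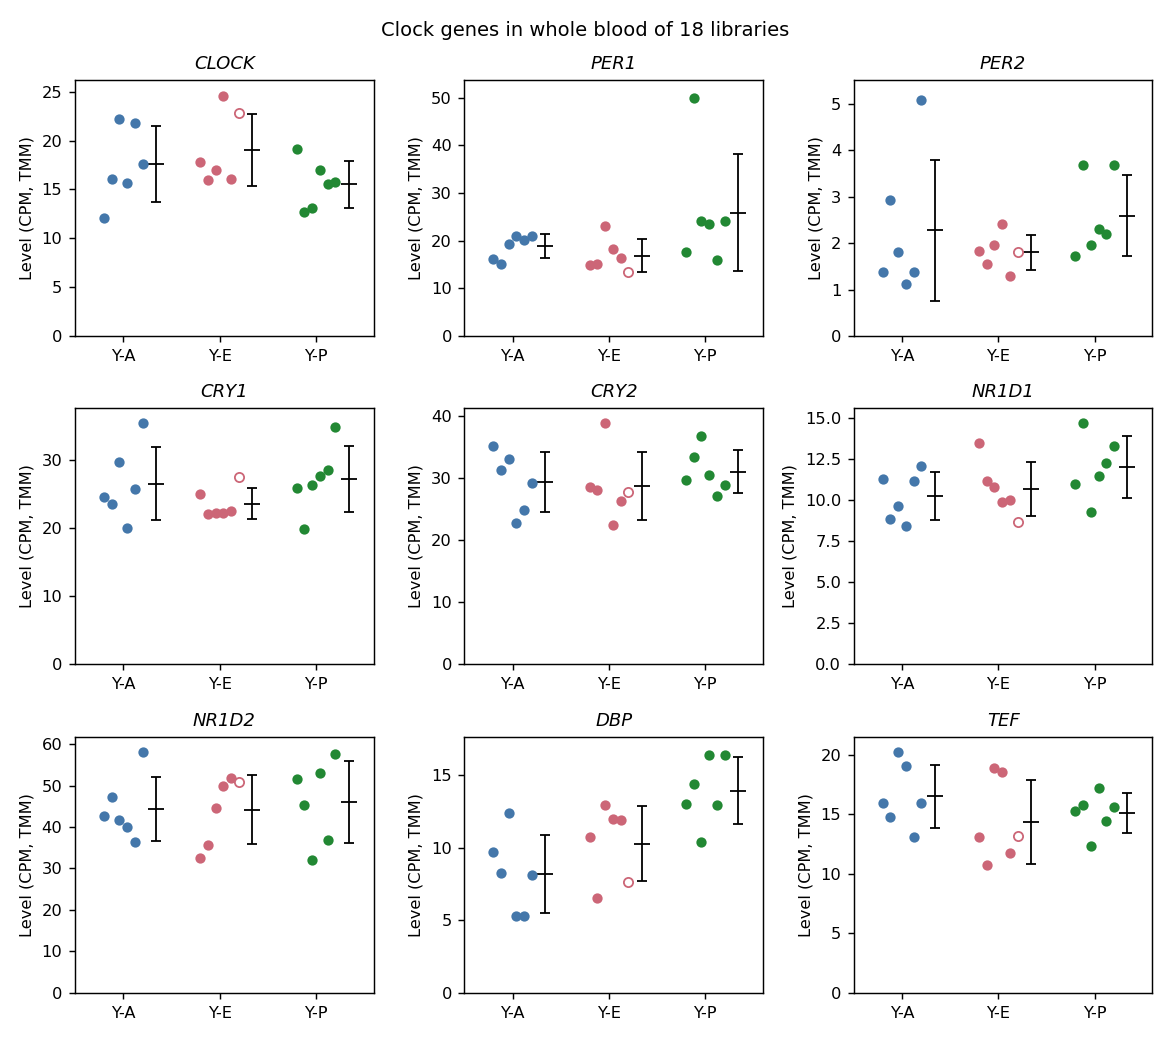
Level in CPM (TMM scaled) of each of the 9 clock genes in 6 libraries per stage, with the mean and SD beside the points; the open point is Y-E replicate 6. DBP has a mean of 13.9 CPM in Y-P against 8.18 CPM in Y-A, 1 Y-P library with 49.9 CPM stretches PER1, and the stages overlap for every gene, DBP and PER1 included.

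Among the repressors of the loop, *PER1* (ENSBGRG00000026736, chromosome 19, 40206971 to 40217126, plus strand) showed the widest gap between stage means after *DBP*. Its lowest, median and highest levels were 15.1, 19.8 and 21.0 in Y-A, 13.4, 15.8 and 23 in Y-E and 15.9, 23.8 and 49.9 CPM in Y-P. In Y-P, 4 of 6 libraries lay above every Y-A library and above every Y-E library, while 2 lay within their ranges. Y-P replicate 2, at 49.9 CPM, stood far above the next library at 24.2 CPM.

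The log2 fold change of *PER1* between Y-P and Y-E was 0.62 ± 0.22 (SE), with a 95% interval of 0.16 to 1.08, an unadjusted p of 0.0114 and an adjusted p of 0.0662 by edgeR, so it was not called. Without Y-E replicate 6 it was 0.56, with an adjusted p of 0.12, and without Y-P replicate 2 it was 0.32, with an adjusted p of 0.19. Without Y-P replicate 1 or 5, in contrast, *PER1* was called, with 0.71 (adjusted p = 0.0396) and 0.73 (adjusted p = 0.0362), and DESeq2 gave 0.61 with an adjusted p of 0.0408. Against Y-A the Y-P difference was 0.46 (95% interval -0.00011 to 0.92, adjusted p = 0.22) and fell to 0.16 without Y-P replicate 2. Between Y-E and Y-A it was -0.16 (95% interval -0.62 to 0.3, adjusted p = 0.999).

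*PER2* (ENSBGRG00000022027, chromosome 3, 128823511 to 128860723, minus strand) encodes the second period protein. Its lowest, median and highest levels were 1.11, 1.59 and 5.09 in Y-A, 1.3, 1.82 and 2.41 in Y-E and 1.72, 2.25 and 3.68 CPM in Y-P. The highest level belonged to Y-A replicate 6, and the lowest to Y-A replicate 4, so the range over all 18 libraries, 4.59-fold, lay within 1 stage. The log2 fold change was 0.52 between Y-P and Y-E (95% interval -0.2 to 1.24, adjusted p = 0.346), 0.19 between Y-P and Y-A (95% interval -0.53 to 0.91, adjusted p = 0.798) and -0.33 between Y-E and Y-A (95% interval -1.06 to 0.39, adjusted p = 0.999). A 2-fold difference of *PER2* between Y-P and Y-E, 1 on the log2 scale, lies within the interval.

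*CRY1* (ENSBGRG00000015409, chromosome 5, 34308837 to 34413715, plus strand) and *CRY2* (ENSBGRG00000009273, chromosome 13, 28685469 to 28726326, plus strand) encode the cryptochromes that bind the CLOCK and ARNTL complex with PER. *CRY1* had lowest, median and highest levels of 20, 25.1 and 35.3 in Y-A, 22, 22.3 and 27.5 in Y-E and 19.9, 26.9 and 34.8 CPM in Y-P. For *CRY2* they were 22.7, 30.2 and 35.1 in Y-A, 22.4, 27.9 and 38.8 in Y-E and 27.1, 30.0 and 36.8 CPM in Y-P. Neither gene separated the stages. The log2 fold changes of *CRY1* lay between -0.17 and 0.2 over the 3 comparisons and those of *CRY2* between -0.036 and 0.11. The widest bound of any *CRY1* interval was 0.5 and the widest of any *CRY2* interval was 0.4.

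*CLOCK* (ENSBGRG00000023603, chromosome 6, 51415148 to 51508326, plus strand) encodes the activator that pairs with ARNTL. Its lowest, median and highest levels were 12.1, 16.8 and 22.2 in Y-A, 16.0, 17.4 and 24.6 in Y-E and 12.7, 15.7 and 19.1 CPM in Y-P. In Y-P, 4 of 6 libraries lay below every Y-E library. The log2 fold change of *CLOCK* between Y-P and Y-E was -0.29 (95% interval -0.63 to 0.042, unadjusted p = 0.0828, adjusted p = 0.239), and it was the only negative one among the 9 clock genes in that comparison. Between Y-P and Y-A it was -0.18 (95% interval -0.51 to 0.16, adjusted p = 0.552), a sign that turned to 0.031 with limma on log2(FPKM + 1). *CLOCK* shares 1224 bases with ENSBGRG00000023674, an unnamed gene on the opposite strand that had 0 to 23 counts per library.

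*ARNTL*, the partner of *CLOCK*, was measured beside it with a mean of 31.6 ± 5.58 CPM (SD, n = 18). Its lowest, median and highest levels were 26.7, 29.5 and 43.7 in Y-A, 20.7, 29.6 and 36.8 in Y-E and 29.6, 32.9 and 42.2 CPM in Y-P. The log2 fold change of *ARNTL* was 0.23 between Y-P and Y-E (95% interval -0.076 to 0.53, adjusted p = 0.323), 0.089 between Y-P and Y-A (adjusted p = 0.769) and -0.14 between Y-E and Y-A (adjusted p = 0.999). Neither gene of the activator complex was called.

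The REV-ERB receptors *NR1D1* and *NR1D2* were not called in any comparison. *NR1D1* (ENSBGRG00000020463, chromosome 19, 25947460 to 25955480, plus strand) had lowest, median and highest levels of 8.44, 10.4 and 12.1 in Y-A, 8.66, 10.4 and 13.5 in Y-E and 9.27, 11.9 and 14.7 CPM in Y-P. *NR1D2* (ENSBGRG00000009728, chromosome 28, 11096887 to 11252262, plus strand), the gene with the highest CPM of the 9, had 36.4, 42.1 and 58.1 in Y-A, 32.6, 47.2 and 51.7 in Y-E and 32.0, 48.5 and 57.5 CPM in Y-P. The log2 fold change of *NR1D1* was 0.22 between Y-P and Y-A (95% interval -0.071 to 0.52, adjusted p = 0.365), and for *NR1D2* the 3 values were 0.059, 0.056 and -0.0034, each with an interval that ended within 0.4 of 0. *NR1D1* shares 1317 of its 8021 bases with *THRA*, a thyroid hormone receptor gene on the opposite strand, and *NR1D2* shares 21969 of 155376 bases with *THRB*. The paper does not state that its library kit marked strand, and the counting was not stated to use strand. *THRA* was measured at 29 to 48 CPM and *THRB* at 0 to 1.18 CPM, so the part of *THRA* reads in the *NR1D1* values was not tested.

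**Figure D3:**
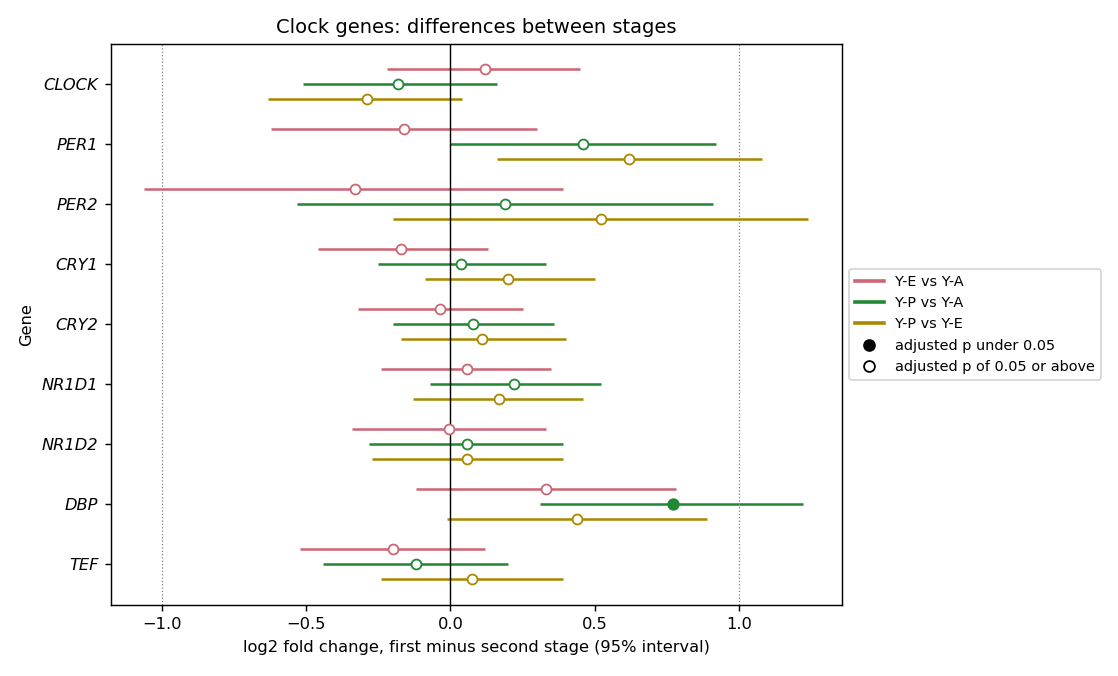
Log2 fold change (x axis, first minus second stage) of the 9 clock genes in the 3 comparisons, with 95% intervals; filled points have an adjusted p under 0.05 and dotted lines mark a log2 fold change of 1 either way. DBP at 0.77 between Y-P and Y-A is the one filled point, and PER2 has the widest intervals, from -1.06 to 1.24 over its comparisons.

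By comparison, 0 of 9 clock genes were called between Y-E and Y-A by edgeR, where 0.0207% of all tested genes were, and 0 of 9 had an unadjusted p under 0.05, where 6.2% of all tested genes did. Both limma fits also called 0 of 9 there, where each called 0.0276% of all tested genes. DESeq2 gave an adjusted p to 1 of the 9 genes in that comparison and left 8 without one, so it says nothing of those 8, and it called 1.18% of the 5496 genes that had one. Between Y-P and Y-A, 7 of 9 log2 fold changes were positive, their median was 0.079 against 0.031 for all tested genes, and the median of their absolute values was 0.18 against 0.26. An unadjusted p under 0.05 was found for 1 of the 9 there and for 22.7% of all tested genes. Between Y-P and Y-E, 8 of 9 were positive with a median of 0.17 against 0.042 for all genes, and an absolute median of 0.2 against 0.3, while 0 of 9 were called where 14.4% of all tested genes were. In that comparison 1 of 9 had an unadjusted p under 0.05, where 29.3% of all tested genes did, DESeq2 called *PER1*, with 20.7% of all genes that had an adjusted p, and limma on log2(FPKM + 1) called *PER1* and *DBP*, with 21.2% of all tested genes. Blocked on the replicate number, edgeR called 0, 1 and 0 of the 9 genes in the 3 comparisons, where 0.0965%, 8.84% and 18% of all tested genes were called, and without Y-E replicate 6 it also called 0, 1 and 0, where 0.157%, 6.06% and 13.7% were. Under the study's pair of thresholds, which adds a log2 fold change of 1 or more in either direction, edgeR called 0 of 9 in each comparison, where 0.0138%, 1.43% and 2.67% of all tested genes were.

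Other genes of the clock pathway were taken from a list of 20 names, of which 17 had a row and 16 passed the filter on low counts. In it 0 of 16 were called between Y-E and Y-A, 1 between Y-P and Y-A and 2 between Y-P and Y-E, all of them lower in Y-P, where 3.61% and 8.68% of all tested genes were called lower. At an unadjusted p under 0.05 the numbers were 3, 3 and 6 of 16, where 6.2%, 22.7% and 29.3% of all tested genes had one. The medians of the 16 log2 fold changes were -0.00097, -0.022 and -0.022, next to -0.0091, 0.031 and 0.042 for all tested genes. DESeq2 called 0 of 8, 2 of 15 and 5 of 15 genes that had an adjusted p by it, where it called 1.18%, 10.9% and 20.7% of all such genes. Blocked on the replicate number, the counts were 0, 2 and 4, where 0.0965%, 8.84% and 18% of all tested genes were called. Without Y-E replicate 6 they were 0, 1 and 3, with *BHLHE40* added between Y-P and Y-E, where 0.157%, 6.06% and 13.7% of all tested genes were called.

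*NFIL3*, the bZIP repressor that competes with DBP and TEF for D-box elements, was measured by replicate number at 139, 165, 117, 130, 271 and 172 CPM in Y-A. The Y-E libraries had 171, 284, 262, 167, 372 and 237 CPM, and the Y-P libraries 153, 139, 96.3, 130, 169 and 202 CPM. In Y-P, 4 of 6 libraries lay below every Y-E library. *NFIL3* fell by 0.75 ± 0.22 (SE) on the log2 scale between Y-E and Y-P (adjusted p = 0.0307 by edgeR), and with the replicate block the adjusted p was 0.00684. Without Y-E replicate 6 these values were 0.0407 and 0.00833. The call was lost without Y-E replicate 2, 3 or 5 and without Y-P replicate 2, 3 or 4, with adjusted p up to 0.0892, and with scaling by library size alone (0.0628) and with limma on log2(FPKM + 1) and log2(FPKM + 0.1) (0.0887 and 0.0906), so it held in 18 of 27 alternative fits. Between Y-E and Y-A *NFIL3* had a log2 fold change of 0.59 that was not called (adjusted p = 0.59).

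*BHLHE40* (DEC1), which represses through the E-box elements that CLOCK and ARNTL use, had levels of 138, 96.9, 117, 99.3, 139 and 120 CPM in the Y-A libraries and of 90.1, 57.6, 86.8, 85.8, 86.1 and 97.6 CPM in Y-P. Of the Y-P libraries, 5 of 6 lay below every Y-A library. *BHLHE40* fell by 0.5 ± 0.14 (SE) on the log2 scale between Y-A and Y-P (adjusted p = 0.0468 by edgeR, 0.0305 with the replicate block). Leaving out 1 library ended the call for Y-A replicates 1, 3, 5 and 6, Y-E replicates 2, 3 and 5 and Y-P replicates 2 to 5, with adjusted p up to 0.104, and scaling by library size alone gave -0.32 with an adjusted p of 0.146. The call was also lost with no low-count filter (0.065) and with both limma fits (0.176 and 0.179), and it held in 12 of 27 alternative fits, among them that without Y-E replicate 6 (0.0483). Against Y-E the Y-P level was lower by a similar amount, -0.43, with an adjusted p of 0.0527 and of 0.0326 with the block.

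*CSNK1D*, the casein kinase that phosphorylates the PER proteins, had lowest, median and highest levels of 306, 321 and 394 in Y-A, 336, 397 and 421 in Y-E and 307, 323 and 335 CPM in Y-P. Every Y-P library lay below every Y-E library, as held in either direction for 6.03% of all tested genes. *CSNK1D* fell by 0.26 ± 0.086 (SE) on the log2 scale between Y-E and Y-P (adjusted p = 0.0478 by edgeR). The call held in 3 of 18 fits that left out 1 library, those without Y-A replicate 4, Y-E replicate 4 or Y-E replicate 6, and not with the replicate block (adjusted p = 0.0702, and 0.0845 without Y-E replicate 6). Over all 27 alternative fits it held in 4. Scaling by library size alone brought the difference to -0.12 (adjusted p = 0.429).

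*HLF*, the third PAR bZIP activator beside *DBP* and *TEF*, is named here after its values were seen. Its lowest, median and highest levels were 4.91, 7.98 and 8.88 in Y-A, 5.51, 7.92 and 9.48 in Y-E and 8.84, 10.1 and 14.8 CPM in Y-P. Of the Y-P libraries, 5 of 6 lay above every Y-A library and 5 of 6 above every Y-E library. The log2 fold change of *HLF* was 0.56 between Y-P and Y-A (adjusted p = 0.0642 by edgeR, 0.0364 with the replicate block) and 0.49 between Y-P and Y-E (adjusted p = 0.0694, and 0.0398 with the block). Without Y-E replicate 6 the adjusted p of *HLF* were 0.0709 and 0.0858, and with the block added 0.0483 and 0.0894, so the blocked call between Y-P and Y-E was lost. In both comparisons *HLF* was called by DESeq2 (adjusted p = 0.0295 and 0.0466), and with library size alone and both limma fits, which used no TMM scaling. It was called in 6 of 27 and 5 of 27 alternative fits, and in 0 of the 18 unblocked fits that left out 1 library. *BTRC*, an F-box gene of PER turnover that is also named after its values were seen, had a log2 fold change of -0.38 between Y-P and Y-E (adjusted p = 0.0563, and 0.0492 with the block). Without Y-E replicate 6 these values of *BTRC* were 0.0584 and 0.0224. DESeq2 gave an adjusted p of 0.0314, and *BTRC* was called in 8 of 27 alternative fits. *CIART* and *USP2* were detected with at most 48 and 6 counts per library, and no fold is given for them.

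**Figure D4:**
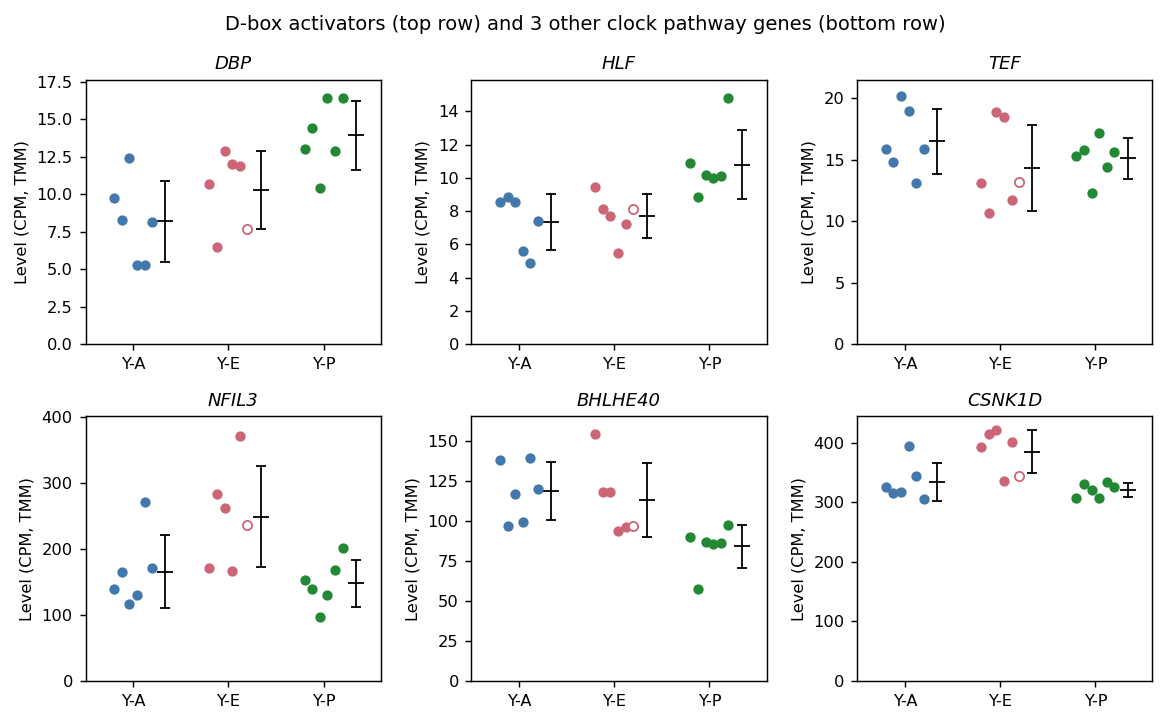
Level in CPM (TMM scaled) of the D-box activators DBP, HLF and TEF (top) and of NFIL3, BHLHE40 and CSNK1D (bottom) in 6 libraries per stage, with the mean and SD beside the points; the open point is Y-E replicate 6. DBP and HLF have their highest medians in Y-P, 13.7 and 10.1 CPM, the stages of DBP, HLF and TEF overlap, and every Y-P point of CSNK1D lies below every Y-E point.

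**Figure D5:**
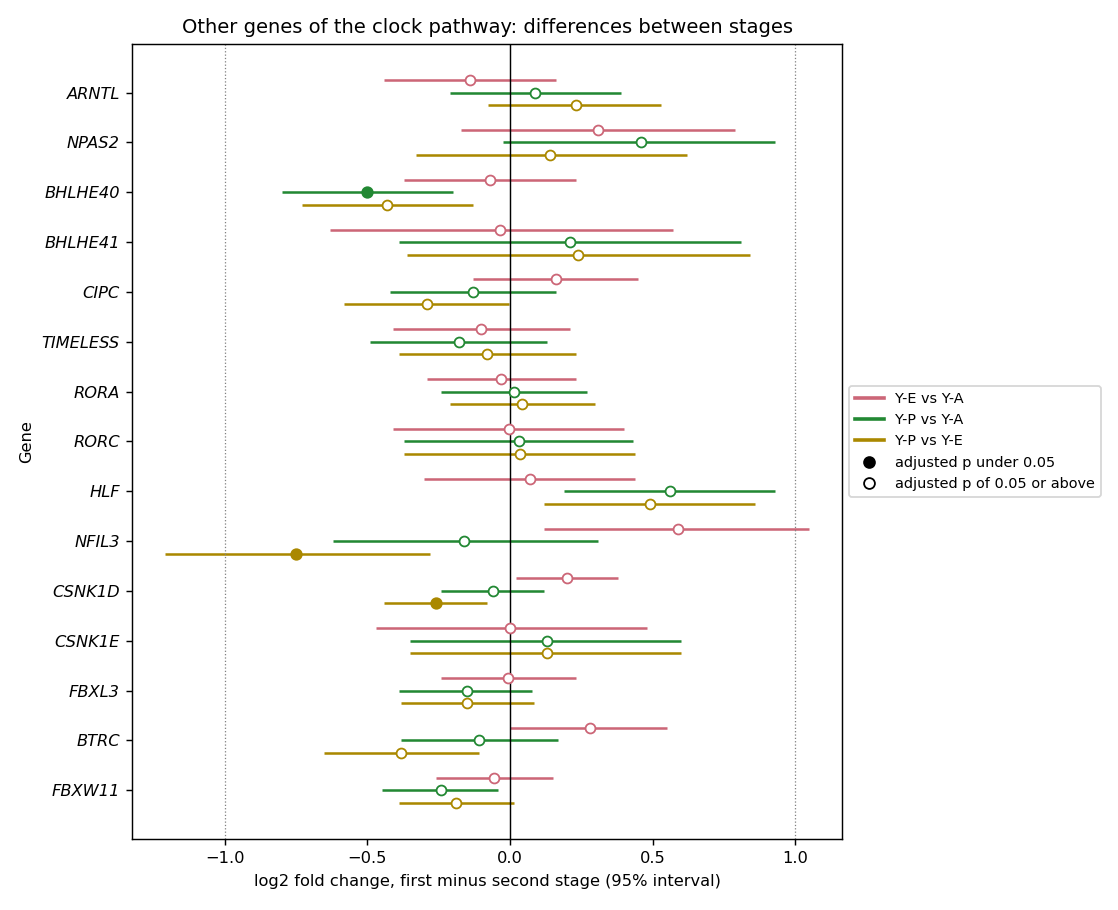
Log2 fold change (x axis, first minus second stage) of 15 other clock pathway genes in the 3 comparisons, with 95% intervals; filled points have an adjusted p under 0.05, dotted lines mark a log2 fold change of 1 either way, and CIART is left out for its low counts. The filled points are BHLHE40 at -0.5 between Y-P and Y-A and NFIL3 at -0.75 and CSNK1D at -0.26 between Y-P and Y-E.

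Within the stages, the clock genes were compared with each other over the 18 libraries after the stage mean had been taken from the log2 CPM. Of 36 pairs, 28 had a positive Pearson's r, with a median of 0.195 and a range of -0.439 to 0.587. After adjustment over the 36 pairs, 0 passed for r and 0 for Spearman's rho, and 2 had an unadjusted permutation p under 0.05 for r. The strongest pair, *DBP* and *TEF*, had r = 0.587 (permutation p = 0.0232, adjusted p = 0.526) and rho = 0.585 (permutation p = 0.0249, adjusted p = 0.59). Without the 2 libraries farthest from the median of *DBP*, r was 0.398. These values share the library of each point, so depth and cell composition enter both genes of a pair.

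Single libraries ranked differently from gene to gene. Y-P replicate 2 was the highest of the 18 libraries for *PER1* and *NR1D1* and the second highest for *PER2*, but the lowest for *CRY1* and the second lowest for *CLOCK*. Y-A replicate 6 was the highest for *PER2*, *CRY1* and *NR1D2* and was in rank 14 for *DBP*. Y-E replicate 6 was the lowest for *PER1* and the second highest for *CLOCK*. Y-P replicate 6 held the highest *DBP* level and was among the 3 highest libraries for *PER1*, *PER2*, *CRY1*, *NR1D1* and *NR1D2*.

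The genes most like the clock genes with the smallest adjusted p were listed by Pearson's r of the log2 CPM over the 18 libraries, given here as a description. For *DBP* they were ENSBGRG00000007955 (r = 0.898), *ZNF414* (r = 0.89) and *NOXA1* (r = 0.87). *PER1* was followed by *HEMK1* (r = 0.851), *MED24* (r = 0.842) and ENSBGRG00000024605 (r = 0.839), and *CLOCK* by *RNPC3* (r = 0.781), *VEZT* (r = 0.779) and *CARF* (r = 0.772). None of these 9 is a clock gene of the lists used here. *ARNTL* had r = 0.179 with *DBP*, 0.122 with *PER1* and 0.0943 with *CLOCK*.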

How the data were processed

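RNA from EDTA blood was poly(A)-selected and sequenced by the authors. Per the methods and the submitters' processing notes, the authors trimmed reads with Cutadapt 1.9, aligned them with HISAT2 2.2.1 to *Bos grunniens* (v101, Ensembl identifiers) and quantified them with StringTie 2.1.6. The authors deposited whole-number counts, not normalized, and FPKM values, scaled by exon length and mapped reads, in 1 table of 20607 genes. The tool that made the counts is not given in the sources used here. Totals per library, 30247267 to 48401076 counts, set the precision of low genes such as *PER2*. Intervals cover the spread between libraries, and the floor of 3 counts covers counting error only.

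Stages were read from the sample labels. Counts were tested with edgeR 4.0.16 in R 4.3.3 (TMM, filterByExpr, quasi-likelihood test, two-sided, stage as the only term, all 18 libraries, Benjamini-Hochberg within each comparison), giving 14508 tested genes. Alternatives were DESeq2 1.42.0, limma 3.58.1 on log2(FPKM + 1) and log2(FPKM + 0.1), library size alone, no hemoglobin genes, no filter, 2 stages only, the replicate number as a block and each library left out. Pair correlations used 100000 permutations of libraries within stages. Scripts were tested on simulated data.

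The study tracked 6 cows, so equal replicate numbers were taken as 1 cow, which the labels do not state outright. As a check, the deviations of same-numbered libraries from their stage means correlated with r of 0.11 to 0.515 between Y-E and Y-A (6 of 6 pairs over 0.1), -0.0492 to 0.369 between Y-P and Y-A (4 of 6) and -0.0544 to 0.4 between Y-P and Y-E (4 of 6). Between Y-E and Y-A, 12 of 12 libraries were nearest to the library of their own number in the other stage. Between Y-P and Y-A this held for 8 of 12, and between Y-P and Y-E for 7 of 12. The main fit, with stage as its only term, and the permutations within stages did not use the replicate number. Both therefore treated libraries of equal number as independent. Blocked values stand beside the results they change.

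The members and lists were chosen with earlier results of these data known. Named were all clock genes of the list, *ARNTL*, other pathway genes with an adjusted p under 0.05 in at least 1 comparison, and for the 3 clock genes with the smallest adjusted p the 3 genes most like them. Marker lists covered neutrophils, monocytes, T, B and NK cells, eosinophils, platelets and reticulocytes. No sequences were used here.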

Additional observations from a re-analysis of the deposited data

Results flagged for a closer look

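The *PER1* level of Y-P replicate 2, at 49.9 CPM, lay far from the other 5 Y-P libraries, the next of which had 24.2 CPM. The gap was 0.755 of the range of the stage, above the critical value of 0.625 of Dixon's test for 6 samples. It was the only such library among 27 sets of 6 tested (9 clock genes in 3 stages). Chance gives such a gap in about 1 of every 20 sets, so 1 among 27 sets is near that rate. In the same library *PER2* and *NR1D1* ranked second and first of 18, *CRY1* last and *CLOCK* in rank 17, and no cause was tested.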

How the results depend on the processing

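Of 729 alternative values for the 27 differences of the clock genes, 680 kept their direction and neither gained nor lost a call (8 of them, between Y-E and Y-A, with no adjusted p by DESeq2), 14 lost a call, 7 gained one and 28 changed sign, none of these in a called difference. The clock gene call between Y-P and Y-A (1) became 0 with no low-count filter, with only the 2 stages compared and with the replicate block without Y-E replicate 6, and 0 to 1 with a library left out. Between Y-P and Y-E (0 calls) it became 1 with library size alone, limma on log2(FPKM + 0.1) and DESeq2, 2 with limma on log2(FPKM + 1), and 0 to 1 with a library left out. For the other pathway genes, the count between Y-P and Y-A (1) was 0 with no filter and 0 to 1 with a library left out. It was 2 with DESeq2 and with the replicate block with or without Y-E replicate 6. With library size alone and with either limma fit it stayed 1, but the gene was *HLF*, higher in Y-P, in place of *BHLHE40*. Between Y-P and Y-E (2) it was 1 without the hemoglobin genes and with no filter (*NFIL3*), 1 with library size alone and with either limma fit (*HLF*), 4 with the replicate block, 5 with DESeq2 and 0 to 3 with a library left out. The cause was not tested. The block changed no other call.

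Signs turned for *NR1D2* between Y-E and Y-A (0.022 with library size alone, 0.0056 with 2 stages, 0.0028 and 0.036 with the block over 18 and 17 libraries, 0.0046 and 0.0043 with limma, 0.0042 with DESeq2), *PER2* between Y-E and Y-A (0.062 with the block without Y-E replicate 6), *CLOCK* between Y-P and Y-A (0.031 and 0.04 with limma) and *TEF* between Y-P and Y-A (0.038 with library size alone, 0.076 and 0.086 with limma). With a library left out the values ran from -0.47 to 0.057 for *PER2*, -0.14 to 0.027 for *CRY2*, -0.025 to 0.11 for *NR1D1* and -0.054 to 0.074 for *NR1D2* between Y-E and Y-A, from -0.046 to 0.11 for *CRY1* and -0.018 to 0.14 for *NR1D2* between Y-P and Y-A, and from -0.025 to 0.14 for *NR1D2* between Y-P and Y-E.

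Over all tested genes, library size alone moved the median log2 fold change between Y-P and Y-A from 0.031 to 0.19 and the share of calls that were higher from 38.1% to 80.6%, and between Y-P and Y-E from 39.9% to 70.3%. Less its median, *DBP* had 0.73 and 0.74 between Y-P and Y-A. All calls numbered 3, 846 and 2096. Between Y-E and Y-A they were 14 with the block, 23 without Y-E replicate 6, 54 with both and 65 with DESeq2. Between Y-P and Y-A they were 1333 with library size alone, 482 with 2 stages, 1282 with the block, 1489 with DESeq2, 2116 and 1928 with limma and 386 to 1077 with a library left out, lowest without Y-P replicate 2. Between Y-P and Y-E the lowest was 1372, without Y-E replicate 5, and DESeq2 called 2760.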
